A study of Mus musculus with 10 samples.

Results

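The SOCS family comprises 8 mouse genes, Cish and Socs1 to Socs7, whose products act as feedback brakes on cytokine signalling. The genes were taken by symbol from a table of 57010 Ensembl gene identifiers, and each symbol matched 1 identifier. All 8 passed the filter on low values, a mean level of 10 or more, and so were among the 12455 genes tested.

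The cells were macrophages grown in culture from mouse femur marrow with 20 ng/mL M-CSF over 7 days. M-CSF is the growth factor that drives marrow precursors to become macrophages. Marrow came from wild-type mice (WT) or from WASp knockout mice (WKO). WASp, the product of Was, activates branched actin assembly in blood cells. There were 2 unconfined WT libraries (replicates 1 and 3), 2 unconfined WKO libraries (replicates 1 and 3), 3 confined WT libraries (replicates 2, 3 and 6) and 3 confined WKO libraries (replicates 1, 2 and 5). Confined cells had been held for 1 h at a height of 3 µm between the dish and a ceiling of silicone micropillars, and each library was made from 5 ng of RNA. All 4 groups shared the M-CSF culture. The labels give neither the number, age or sex of the mice nor the knockout allele, and they do not say whether unconfined cells were kept in the device. They also do not say that replicates came from separate mice or cultures, so p-values measure only the spread between these libraries. The series names nuclear envelope rupture and inflammation as its subject.

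SOCS proteins are made in response to cytokines and then act back on the receptors that induced them. A cytokine binds its receptor, JAK kinases on the receptor phosphorylate STAT factors, and the STATs enter the nucleus and switch on genes that include SOCS genes. Each SOCS protein holds an SH2 domain, which binds phosphorylated tyrosines, and a SOCS box, which recruits elongins B and C and a cullin to mark bound proteins for degradation. SOCS1 and SOCS3 also carry a short kinase inhibitory region that blocks JAKs directly. In macrophages, SOCS3 is known as the brake on IL-6 signalling through the receptor subunit gp130, and SOCS1 as the brake on interferon-gamma signalling.

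Total depth lay between 13295701 and 19329908 reads per library, and 3 reads, taken as the detection floor, equal a normalized read count of 2.35 to 3.59. Was stood at 1308 to 1639 in the unconfined and 1570 to 1649 in the confined WT libraries, against 141 to 154 and 96.9 to 125 in the corresponding WKO libraries, so that this gene followed the genotype labels in every library. None of the 8 macrophage markers was at 0 in any library. Their summed level was 206120 and 208283 in unconfined WT and 179561 to 208102 in confined WT. In WKO it was 241895 and 250579 unconfined and 252962 to 314561 confined. Markers of other marrow cells were also present. The summed level of 11 neutrophil and granulocyte progenitor markers was 6991 and 10910 in unconfined WT, 2570 to 7972 in confined WT, 25074 and 30203 in unconfined WKO, and 7015 to 28244 in confined WKO. The summed level of 10 stromal markers was 836 and 1735 in unconfined WT, 184 to 729 in confined WT, 2287 and 2637 in unconfined WKO, and 831 to 9831 in confined WKO. The summed level of 6 B cell markers was 1033 and 1041, 417 to 863, 5179 and 5465, and 1794 to 6531 in the same order of groups, while the 6 T and NK cell markers summed to between 0 and 8.88, with 3 to 6 of them at 0 in a library. At most 2 stromal, 1 neutrophil and 2 B cell markers were at 0 in any library.

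The RefSeq promoter table (GRCm38.p6) held 4 of the 8 members, Cish, Socs1, Socs3 and Socs4, each as a window from 250 bases before to 50 bases after the annotated start. Letters typical of binding sites were searched on both strands: TTCNNNGAA and the same with 1 more free base between TTC and GAA for STAT factors, TGANTCA for AP-1, TGACGTCA for CREB, and GGGA followed by 4 free bases and CC as a loose pattern for NF-kB. The Socs3 and Cish stretches that held matches are shown because these 2 members had the largest differences between confined and unconfined cells in each genotype. Capitals mark the matches. The Socs3 stretch is the longest run, within the 250 bases before the RefSeq start, that no annotated exon covers. It is chr11:117969452-117969616 on the minus strand, from 250 to 86 bases before that start. This run also lies inside the longer Socs3 gene annotated in GENCODE M21. The Cish stretch is the first 20 bases from the RefSeq start, chr9:107296659-107296678 on the plus strand, which lies inside the longer gene annotated in GENCODE M21, whose exons cover the whole window before it.
Socs3: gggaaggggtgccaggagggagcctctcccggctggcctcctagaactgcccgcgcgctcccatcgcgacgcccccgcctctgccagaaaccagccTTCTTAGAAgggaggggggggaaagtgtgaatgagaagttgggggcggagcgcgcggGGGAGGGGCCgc
Cish: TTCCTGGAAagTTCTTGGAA

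The first capitals in the Socs3 stretch match TTCNNNGAA at 154 to 146 bases before the start, and the second match the NF-kB pattern at 97 to 88 bases before it. The Cish stretch holds TTCNNNGAA at bases 1 to 9 and again at bases 12 to 20, counted from the RefSeq start. Of 32851 promoter windows of this length, 8.3% hold TTCNNNGAA, 6.95% the longer STAT pattern, 7.81% TGANTCA, 1.79% TGACGTCA and 20.7% the NF-kB pattern. The Socs1 and Socs4 windows hold none of the 5 patterns. These are matches of letters, and no binding was measured in these cells.

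Socs3 was the 1 SOCS gene that passed the test after confinement, and it did so in both genotypes. The gene lies on chromosome 11 from 117966079 to 117970047 on the minus strand (GRCm38). Levels, given as normalized read counts, were 19.0 and 19.2 in the unconfined WT libraries and 716, 1136 and 1915 in the confined WT libraries (replicates 2, 3 and 6). It was 21.7 and 119 in the unconfined WKO libraries (replicates 1 and 3) and 1501, 599 and 6332 in the confined WKO libraries (replicates 1, 2 and 5). Each confined library lay above every unconfined library of either genotype. The lowest confined library was WKO replicate 2 and the highest was WKO replicate 5, while WKO replicate 3 stood apart as the highest of the unconfined libraries. Because whole cultures were measured, more cells that make a transcript and more transcript per cell cannot be told apart.

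Mean Socs3 levels were 19.1 ± 0.137 (SD, n = 2) in unconfined WT, 1255 ± 609 (SD, n = 3) in confined WT, 70.2 ± 68.6 (SD, n = 2) in unconfined WKO and 2811 ± 3083 (SD, n = 3) in confined WKO. On the scale of log2(normalized read count + 1), which understates changes of low genes, Socs3 rose after confinement by 5.85 in WT (SE 0.842, 95% interval 4.01 to 7.69, limma adjusted p = 0.00594). In WKO it rose by 5.10 (SE 0.842, 95% interval 3.26 to 6.94, limma adjusted p = 0.011). These correspond to 57.7-fold and 34.3-fold. Set against the unconfined mean of their genotype, the confined WT libraries were 37.5-fold, 59.5-fold and 100-fold higher (replicates 2, 3 and 6). The confined WKO libraries were 21.4-fold, 8.53-fold and 90.2-fold higher (replicates 1, 2 and 5), a wider spread than in WT.

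**Figure D1:**
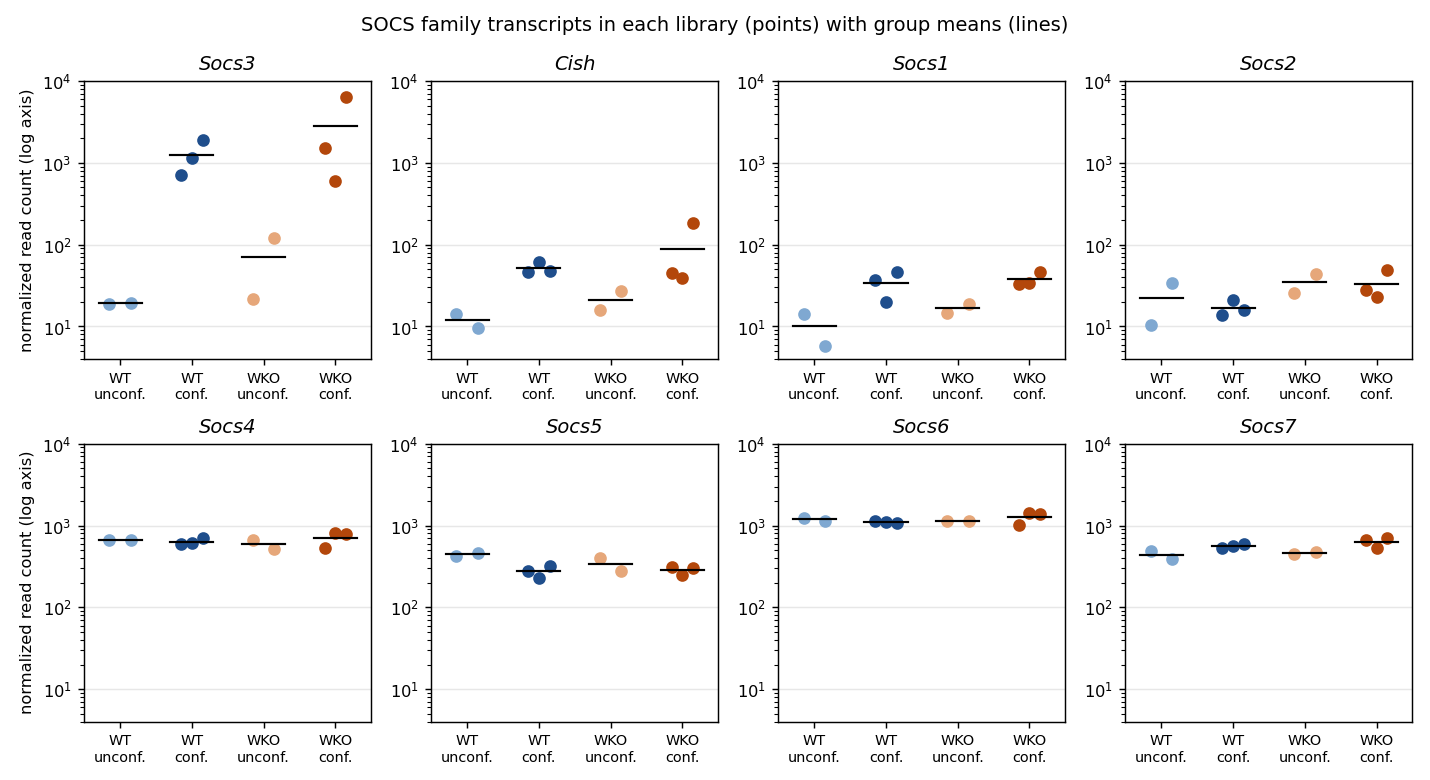
Normalized read count (vertical log axis) of each SOCS gene in every library, with points for libraries and horizontal lines for group means, in WT (blue) and WKO (orange), unconfined (pale) and confined (dark). Socs3 lies between 19.0 and 119 in the unconfined and between 599 and 6332 in the confined libraries, while Socs4, Socs5, Socs6 and Socs7 stay within a narrow band.

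Leaving out an unconfined WT library barely moved the Socs3 change in WT, which was 5.84 without replicate 1 and 5.86 without replicate 3. Its call was lost in both fits, each with 1 unconfined WT library left. Fewer of all tested genes were called in these fits as well. In WKO the Socs3 change was 3.90 without unconfined replicate 1, where the call was lost, and 6.30 without unconfined replicate 3, where it held. Without the mean-variance trend of the fit the adjusted p was 0.0736 in WT and 0.0985 in WKO, and with only the WKO libraries fitted it was 0.125. Without confined WKO replicate 5, where Socs3 was highest, the change in WKO was 4.19 (limma adjusted p = 0.00351). Over the 22 alternatives the change lay between 5.49 and 6.20 in WT (adjusted p between 3.2e-06 and 0.0861) and between 3.86 and 6.30 in WKO (adjusted p between 3.18e-05 and 0.176). Confined WKO replicate 5 also had the highest summed stromal (9831) and macrophage (314561) markers of all libraries. Among the confined WKO libraries it had the lowest summed neutrophil (7015) and B cell (1794) markers. The confined WT libraries had lower summed stromal markers than the unconfined WT ones. The part of these cells in the Socs3 values was not tested.

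Cish encodes CIS, the founding member of the family, which is induced through STAT5 and binds cytokine receptors. The gene lies on chromosome 9 from 107296026 to 107302784 on the plus strand. Its normalized read count was 14.2 and 9.60 in unconfined WT (replicates 1 and 3) against 46.1, 61.0 and 47.4 in confined WT (replicates 2, 3 and 6). In WKO it was 15.8 and 26.8 unconfined (replicates 1 and 3) against 44.7, 39.0 and 185 confined (replicates 1, 2 and 5). All confined libraries lay above all unconfined ones, and confined WKO replicate 5 was again the highest. The difference was 2.03 on the log2 scale in WT (SE 0.591, 95% interval 0.744 to 3.33, limma adjusted p = 0.158) and 1.69 in WKO (SE 0.591, 95% interval 0.399 to 2.98, limma adjusted p = 0.217), so it did not pass the threshold in either genotype.

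The Cish call moved with the libraries in the fit. Without confined WKO replicate 5, which adds to the spread shared by all groups in the fit, the WT difference was 2.03 with a limma adjusted p of 0.0164, and over the 22 alternatives its adjusted p lay between 0.0164 and 0.54. Without that library 287 of all tested genes were higher and 110 lower in WT, against 111 and 33 with all libraries. Cish counts were low, from 10 to 154 reads per library. In the GENCODE M21 annotation 11.5% of its exonic bases overlap the antisense gene Gm17041 or the pseudogene Gm17040. Whether the counting used strand is not given in the sources used here, and both of these genes were listed at 0 in every library.

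Socs1 encodes the other member with a kinase inhibitory region, and lies on chromosome 16 from 10782240 to 10785536 on the minus strand. Its normalized read count was 14.2 and 5.76 in unconfined WT (replicates 1 and 3) against 37.5, 19.9 and 45.8 in confined WT (replicates 2, 3 and 6). In WKO it was 14.8 and 18.6 unconfined (replicates 1 and 3) against 33.0, 33.7 and 46.7 confined (replicates 1, 2 and 5). Within each genotype the confined libraries lay above the unconfined ones. The difference was 1.72 on the log2 scale in WT (SE 0.514, 95% interval 0.603 to 2.85, limma adjusted p = 0.167) and 1.12 in WKO (SE 0.514, 95% interval 0.00147 to 2.24, limma adjusted p = 0.354). Neither passed the threshold, and with 6 to 57 reads per library these levels were measured with wide counting error.

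Socs2, known for limiting growth hormone signalling, was the member with the lowest level per kilobase in confined cells. It lies on chromosome 10 from 95385362 to 95417180 on the minus strand. The normalized read count of Socs2 was 10.4 and 33.6 in unconfined WT (replicates 1 and 3) and 13.9, 21.1 and 16.1 in confined WT (replicates 2, 3 and 6). In WKO it was 25.7 and 44.4 unconfined (replicates 1 and 3) and 28.2, 23.2 and 49.1 confined (replicates 1, 2 and 5). The confined and unconfined libraries overlapped in both genotypes, with differences of -0.16 in WT (95% interval -1.38 to 1.05, limma adjusted p = 0.942) and -0.08 in WKO (95% interval -1.30 to 1.13, limma adjusted p = 0.967) on the log2 scale. Both intervals hold 2-fold changes in either direction, so that changes of this size were not detectable here.

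Socs4 and Socs5 are close relatives with long amino-terminal regions, known for acting on the epidermal growth factor receptor. Socs4 (chromosome 14, 47276931 to 47296102, plus strand) had a normalized read count of 667 and 670 in unconfined WT, 599, 610 and 696 in confined WT, 659 and 521 in unconfined WKO, and 528, 816 and 798 in confined WKO. Confined and unconfined libraries overlapped in both genotypes. The differences were -0.08 in WT (95% interval -0.493 to 0.338, limma adjusted p = 0.912) and 0.26 in WKO (95% interval -0.159 to 0.672, limma adjusted p = 0.589) on the log2 scale.

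Socs5 (chromosome 17, 87107679 to 87137839, plus strand) was the member with the lowest log2 difference in WT. Normalized read counts of Socs5 were 421 and 466 in unconfined WT against 277, 228 and 320 in confined WT, with no overlap. In WKO it was 398 and 281 unconfined against 315, 246 and 302 confined, where the libraries overlapped. The difference was -0.70 in WT (SE 0.203, 95% interval -1.14 to -0.256, limma adjusted p = 0.158) and -0.22 in WKO (SE 0.203, 95% interval -0.666 to 0.222, limma adjusted p = 0.667) on the log2 scale. Neither passed the threshold, and the difference between the genotypes' responses was 0.48 (95% interval -0.15 to 1.11, limma adjusted p = 0.999).

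Socs6 and Socs7 bind insulin receptor substrates and signalling receptors rather than JAKs. Socs6 had a normalized read count of 1228 and 1150 in unconfined WT, 1064 to 1121 in confined WT, 1143 and 1147 in unconfined WKO, and 1019 to 1416 in confined WKO. The WT groups did not overlap but lay close together, with a difference of -0.12 (95% interval -0.433 to 0.196, limma adjusted p = 0.8), and in WKO the difference was 0.14 (95% interval -0.174 to 0.455, limma adjusted p = 0.707) on the log2 scale.

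Socs7 (chromosome 11, 97362551 to 97398542, plus strand) was higher in every confined library than in the unconfined libraries of its genotype. Normalized read counts of Socs7 were 492 and 387 in unconfined WT against 536, 556 and 598 in confined WT. In WKO it was 455 and 469 unconfined against 665, 531 and 703 confined. The differences were small, 0.37 in WT (SE 0.16, 95% interval 0.0174 to 0.715, limma adjusted p = 0.387) and 0.44 in WKO (SE 0.16, 95% interval 0.0949 to 0.792, limma adjusted p = 0.232) on the log2 scale, and did not pass the threshold.

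Counted over the family, 1 of 8 members rose and 0 fell after confinement in WT, where 1.16% of all tested genes passed the test in either direction. In WKO the count was also 1 of 8 higher and 0 lower, against 1.72% of all tested genes. At an unadjusted p under 0.05 there were 5 members in WT, beside 1523 of the 12455 tested genes, and 4 in WKO, beside 1758. The median log2 difference of the 8 members was 0.14 in WT and 0.35 in WKO, beside -0.01 in both genotypes over all tested genes. Confined and unconfined libraries did not overlap for 4 members in the higher and 2 in the lower direction in WT, where 35.9% of all tested genes did not overlap. In WKO they did not overlap for 4 members in the higher and 0 in the lower direction, where 28.3% of all tested genes did not overlap. The 4 in the higher direction were Socs3, Cish, Socs1 and Socs7 in each genotype.

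**Figure D2:**
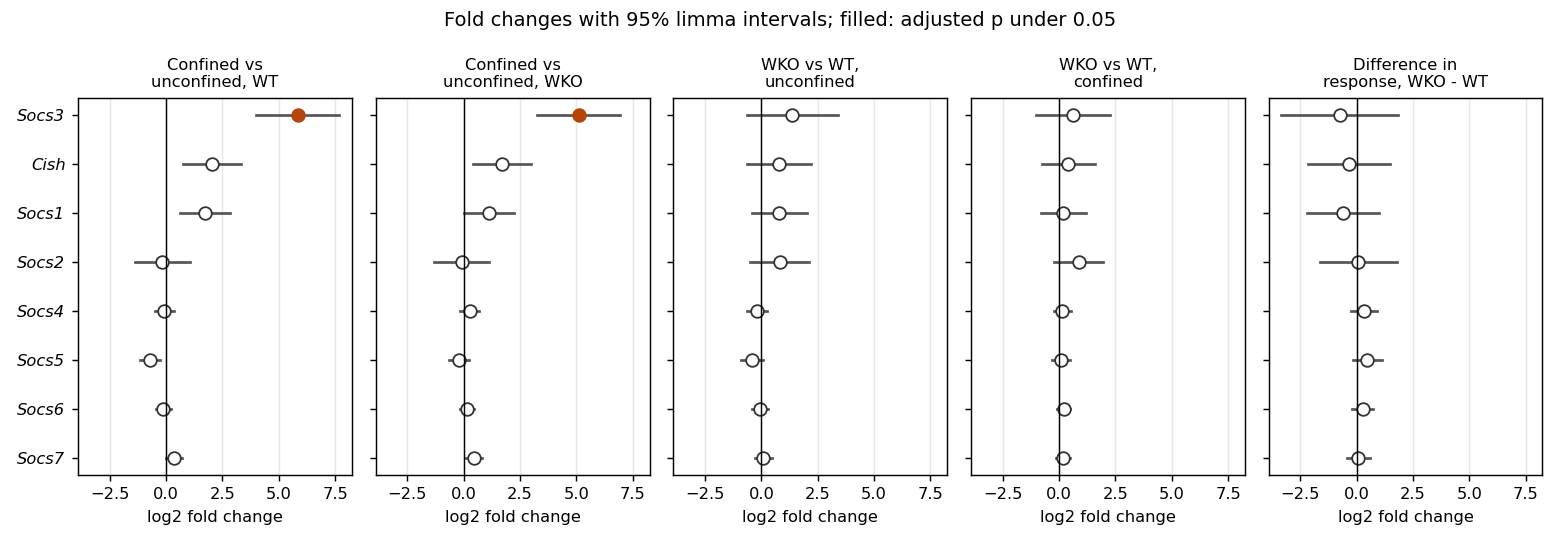
Log2 fold change (horizontal axis, with 95% limma intervals as lines) of each SOCS gene in the 5 comparisons, filled where the adjusted p was under 0.05. Socs3 is filled at 5.85 and 5.10 in the confinement comparisons, and no member is filled in the comparisons of genotypes.

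Loss of WASp moved no SOCS gene past the threshold. In unconfined cells 0 of 8 members passed in limma, where 0.145% of all tested genes did, and 0 had an unadjusted p under 0.05, beside 1196 of the 12455 tested genes. In confined cells 0 of 8 passed, where 2.59% of all tested genes did, and 0 had an unadjusted p under 0.05, beside 2087 of the tested genes. By edgeR and DESeq2 the count was 0 of 8 in both conditions as well. Without confined WKO replicate 1, 1 member passed in confined cells, Socs6 at 0.36 (limma adjusted p = 0.0456, with a range of 0.0179 to 0.816 over the alternatives). In that fit 313 of all tested genes were higher and 388 lower, against 172 and 150 with all libraries. The median log2 difference of the members was 0.42 in unconfined and 0.20 in confined cells, beside 0.00 over all tested genes in each.

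Among single members, unconfined WKO libraries lay above the WT ones for Socs3, Cish and Socs1, and below them for Socs4, Socs5 and Socs6. With 2 libraries against 2, 44.9% of all tested genes did not overlap in that comparison, so 3 members in each direction are not set apart by it. The Socs3 difference was 1.38 on the log2 scale (SE 0.922, 95% interval -0.639 to 3.39, limma adjusted p = 0.704), with 21.7 in replicate 1 close to the WT level and 119 in replicate 3 well above it. In confined cells all 8 members had a positive difference, and the groups did not overlap for 1 of them, Socs2, where 21.1% of all tested genes did not overlap. The Socs2 difference in confined cells was 0.88 (SE 0.497, 95% interval -0.201 to 1.97, limma adjusted p = 0.41).

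The Socs3 difference between confined WKO and WT was 0.62 (SE 0.753, 95% interval -1.02 to 2.27, limma adjusted p = 0.745). Its sign came from confined WKO replicate 5: without that library the difference was -0.29 (limma adjusted p = 0.87, with a range of 0.361 to 0.938 over the alternatives). The Cish difference went from 0.42 to -0.29 without the same library. Macrophage, stromal, neutrophil and B cell markers also differed between the genotypes, as given above, and their part in these comparisons was not tested.

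The response to confinement was compared between the genotypes by the interaction term, the log2 change in WKO less the log2 change in WT. No member passed, and 0% of all tested genes passed in limma, although 258 genes had an unadjusted p under 0.05. The count over all genes was also 0 by edgeR and by DESeq2. For Socs3 the interaction was -0.75 (SE 1.19, 95% interval -3.35 to 1.85, limma adjusted p = 0.999), an interval that holds differences in response of several fold in both directions. For Cish it was -0.35 (95% interval -2.17 to 1.48, limma adjusted p = 0.999) and for Socs1 -0.60 (95% interval -2.19 to 0.985, limma adjusted p = 0.999).

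Levels were compared between members as the normalized read count per kilobase of exon, using the union of exons in GENCODE M21. The order depends on these lengths, which run from 2891 bases for Socs3 to 11349 for Socs6. The Cish union, 6419 bases, takes in nearly its whole annotated locus, so its level per kilobase rests on that annotation. In unconfined WT the order was Socs6 at 104 ± 4.95, Socs4 at 97.2 ± 0.283, Socs5 at 69.1 ± 4.95 and Socs7 at 60.5 ± 10.2 (SD, n = 2), followed at a distance by Socs3 at 6.61, Socs1 at 3.43, Socs2 at 2.31 and Cish at 1.85. The ranges of Socs6 and Socs4 did not overlap, nor did those of Socs4 and Socs5, whereas Socs5 (65.6 to 72.6) overlapped Socs7 (53.3 to 67.7). Socs1, Socs2 and Cish overlapped one another. In both unconfined WT libraries each of Socs4 to Socs7 stood well above the other 4 members.

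In confined WT Socs3 headed the order at 434 ± 210 (SD, n = 3), with a lowest library of 248. Socs6 followed at 96.5 ± 2.52, Socs4 at 92.3 ± 7.61, Socs7 at 77.5 ± 4.34 and Socs5 at 42.9 ± 7.21, and then Socs1 at 11.8 ± 4.53, Cish at 8.02 ± 1.29 and Socs2 at 1.79 ± 0.384 (SD, n = 3). Socs6 and Socs4 overlapped, as did Socs1 and Cish, and the other neighbours did not. In unconfined WKO the order was Socs6, Socs4, Socs7, Socs5, Socs3, Socs1, Socs2 and Cish, with Socs3 between 7.51 and 41.2, and Socs2 and Cish were the only neighbours that overlapped. In confined WKO Socs3 again came first at 972 ± 1066 (SD, n = 3), with a range of 207 to 2190 that lay above the highest Socs6 library at 125. Socs6, Socs4 and Socs7 overlapped one another there, as did Cish and Socs1.

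Socs3 made up 1.86% and 1.96% of the summed per-kilobase level of the 8 members in unconfined WT, and 43.3%, 55.4% and 65.3% in confined WT (replicates 2, 3 and 6). In WKO its share was 2.21% and 12.1% unconfined (replicates 1 and 3) and 61.2%, 35.5% and 83.5% confined (replicates 1, 2 and 5). Without scaling to exon length the Socs3 share was 0.663% and 0.7% in unconfined WT and 21.4%, 30.4% and 40.7% in confined WT. In WKO the unscaled share was 0.793% and 4.53% unconfined and 36.3%, 16.2% and 64.5% confined. Socs6 then made up more than Socs3 in confined WT replicate 2 (33.5%) and confined WKO replicate 2 (38.2%). The summed level itself was 337.9 to 353.1 per kilobase in the 4 unconfined libraries and 572.4 to 2623 in the 6 confined libraries. Over the same libraries the Socs3 level per kilobase went from between 6.57 and 41.2 to between 207 and 2190, as the plot of summed levels per library shows.

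**Figure D3:**
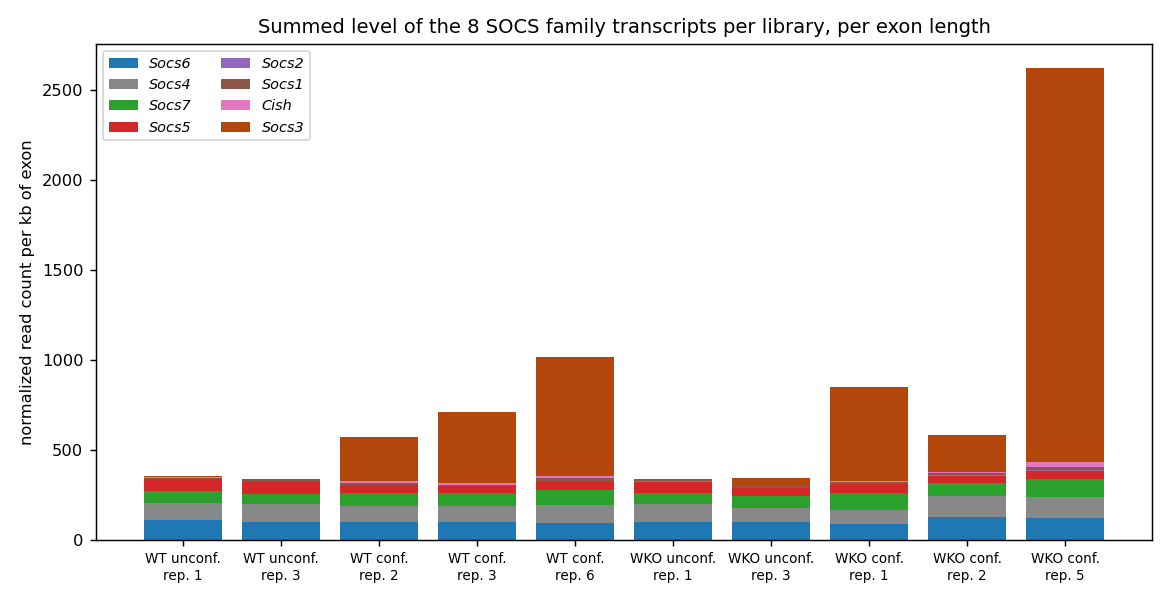
Stacked bars of the normalized read count per kilobase of exon of the 8 SOCS genes, 1 bar per library. The Socs3 segment takes 1.86% to 12.1% of the bar in unconfined and 35.5% to 83.5% in confined libraries. The segments below it vary less in height, with Socs5 from 35.5 to 72.6 and Socs7 from 53.3 to 96.8 per kilobase.

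The 3 genes named by likeness followed Socs3 most closely over the 10 libraries among the 10217 tested genes with a mean of at least 50, by Pearson's r of the log2 values. They were Nfkbiz (r = 0.995, Spearman's rho = 1), which encodes an atypical IkB protein of the nucleus, Btg2 (r = 0.994, rho = 0.988), an antiproliferative gene, and Pim1 (r = 0.992, rho = 0.915), a kinase gene known as a STAT target. These correlations describe libraries that share the confinement state, so a high r is partly the difference between confined and unconfined cells. The genes were also chosen by r over these same libraries, so a high r in a part of them partly follows from that choice. Among the 6 confined libraries alone r was 0.988 for Nfkbiz, 0.988 for Btg2 and 0.924 for Pim1. Spearman's rho there was 1, 0.943 and 0.829. Among the 4 unconfined libraries r was 0.979, 0.949 and 0.987 in the same order, and rho was 1, 1 and 0.2. For Pim1 the order of the unconfined libraries thus differed from that of Socs3, apart from WKO replicate 3, which was highest for both. Socs3 had 115 reads in that library, against 20, 20 and 22 reads in WT replicates 1 and 3 and WKO replicate 1. The r among the unconfined libraries therefore rests on 1 library, and rho on an order of nearly equal Socs3 counts.

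Nfkbiz had a normalized read count of 76.0 and 81.6 in unconfined WT, 2062, 2887 and 4042 in confined WT, 105 and 231 in unconfined WKO, and 2890, 1735 and 12379 in confined WKO. The same libraries were the extremes as for Socs3, with WKO replicate 3 highest among the unconfined and WKO replicate 5 highest among the confined. It rose by 5.18 in WT (limma adjusted p = 0.00268) and by 4.66 in WKO (limma adjusted p = 0.0035) on the log2 scale. Btg2 rose by 2.08 in WT (limma adjusted p = 0.0107) and by 1.76 in WKO (limma adjusted p = 0.0228). Both genes lost their WT call without unconfined WT replicate 1 (limma adjusted p = 0.0547 for Nfkbiz and 0.122 for Btg2) and their WKO call without unconfined WKO replicate 1 (0.0711 and 0.292). Btg2 also lost it without unconfined replicate 3 of WT (0.0992) or of WKO (0.0688).

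**Figure D4:**
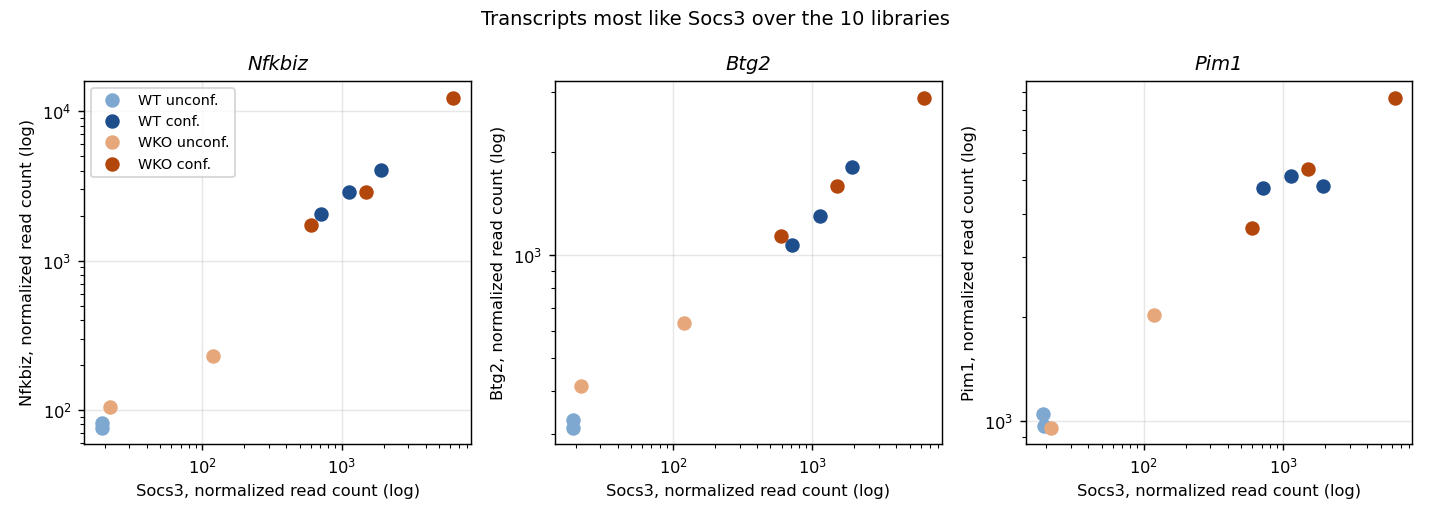
Normalized read counts of Nfkbiz, Btg2 and Pim1 (vertical log axes) against that of Socs3 (horizontal log axis), 1 point per library coloured by group. Confined and unconfined libraries form separate clouds, and within the 6 confined libraries r is 0.988, 0.988 and 0.924.

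The genes that act around SOCS proteins were described as lists, ordered from the cytokine to the target gene. These lists were chosen with earlier results of these data known. Over all tested genes 1.16% passed after confinement in WT and 1.72% in WKO, and 2.59% passed for WASp loss in confined cells. An unadjusted p under 0.05 was found after confinement for 1523 of the 12455 tested genes in WT and 1758 in WKO. Of 17 ligands of JAK-coupled receptors, 4 were high enough to be tested, and 2 of these rose and 0 fell in each genotype, with a median of 1.32 in WT and 1.51 in WKO. Osm encodes oncostatin M, which signals through gp130. Its normalized read count was 94.0 and 126 in unconfined WT, 617 to 662 in confined WT, 93.7 and 246 in unconfined WKO, and 583 to 1398 in confined WKO. Confined and unconfined libraries did not overlap. It rose by 2.53 in WT (SE 0.384, limma adjusted p = 0.00782) and by 2.61 in WKO (SE 0.384, limma adjusted p = 0.00542) on the log2 scale. The WT call was lost without unconfined WT replicate 1 (limma adjusted p = 0.121) or 3 (0.0648), and the WKO call without unconfined WKO replicate 1 (0.0753).

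Il10, whose product induces SOCS3 through STAT3, had a normalized read count of 27.5 and 16.3 in unconfined WT, 223 to 271 in confined WT, 44.4 and 21.7 in unconfined WKO, and 408, 204 and 1921 in confined WKO (replicates 1, 2 and 5). It rose by 3.49 in WT (SE 0.691, limma adjusted p = 0.0345) and by 4.08 in WKO (SE 0.691, limma adjusted p = 0.0123) on the log2 scale. Confined WKO replicate 5 was highest for Il10 as for Socs3. The WT call for Il10 held in 12 of 22 alternatives and was lost without any 1 of the WT libraries or of the unconfined WKO libraries (limma adjusted p between 0.0504 and 0.301). By edgeR 1 of the 4 ligands passed in WT, and Il10 did not (adjusted p = 0.122). The WKO call was lost without unconfined WKO replicate 1 (0.0711) or 3 (0.164). The other tested ligands, Lif and Il15, did not pass in either genotype. Il6, named after its values were seen because SOCS3 is the brake on its receptor, was not tested for its low level: it had 2 reads or fewer in 8 libraries, and 30 and 37 reads in confined WKO replicates 1 and 5.

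Of 28 cytokine receptors that signal through JAKs, 25 were tested and 0 passed in limma or edgeR after confinement in either genotype, with 0 in WT and 2 in WKO at an unadjusted p under 0.05 and medians of 0.06 in WT and 0.14 in WKO. The smallest p was that of Ifngr2, a chain of the interferon-gamma receptor, with 0.60 in WKO (limma adjusted p = 0.173). It passed in WKO without confined WKO replicate 1 (limma adjusted p = 0.0103) and by DESeq2 (adjusted p = 0.0452). In WT the Ifngr2 difference was 0.30 (limma adjusted p = 0.57). All 11 JAK kinases and STAT factors were tested and 0 passed in limma or edgeR, with 0 in WT and 2 in WKO at an unadjusted p under 0.05 and medians of -0.11 in WT and -0.07 in WKO. Stat3, which carries the IL-6 and IL-10 signal, had the smallest p in this list, with 0.15 in WT (limma adjusted p = 0.76) and 0.58 in WKO (limma adjusted p = 0.1; 0.0253 without confined WKO replicate 1) on the log2 scale. DESeq2 called Stat3 in WKO (adjusted p = 0.019). Without confined WKO replicate 1, 818 of all tested genes were higher and 225 lower in WKO, against 185 and 29 with all libraries. After loss of WASp in confined cells 1 of the 25 tested receptor genes was higher, beside 2.59% of all tested genes called. It was Csf3r, which encodes the G-CSF receptor (1.13, limma adjusted p = 0.0154). The call was lost without confined WT replicate 2 (0.0514) and without the mean-variance trend (0.0771). Csf3r is also made by neutrophils, whose summed markers were 2570 to 7972 in confined WT and 7015 to 28244 in confined WKO, and their part in this difference was not tested.

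The degradation machinery and the other inhibitors did not pass in limma or edgeR either. Of 6 genes for the elongins, cullins and RING proteins that work with the SOCS box, 0 passed in either genotype in limma, edgeR or DESeq2 and 0 had an unadjusted p under 0.05, with medians of 0.06 in WT and -0.17 in WKO. In WKO 1 of them passed in limma without confined WKO replicate 1, and 2 passed with array weights. Over all tested genes in WKO, 818 were higher and 225 lower without that library, and 1087 and 648 with array weights. With all libraries and no weights the counts were 185 and 29. Of 16 other SOCS box genes, 15 were tested and 0 passed in limma, with 2 in WT and 5 in WKO at an unadjusted p under 0.05 and medians of -0.13 and -0.15. DESeq2 called 1 gene of this list in each genotype. The smallest p in that list was that of Asb2, with 50.3 and 45.1 in unconfined WT against 5.36 to 8.21 in confined WT, a difference of -2.68 (SE 0.608, limma adjusted p = 0.064). In WKO the Asb2 libraries overlapped, with a difference of -0.75 (limma adjusted p = 0.623). Asb2 passed in WT without confined WKO replicate 1 (limma adjusted p = 0.0172) or 5 (0.0273), and DESeq2 called it in WT (-2.85, adjusted p = 0.00453). Over all tested genes in WT, 244 were higher and 86 lower without replicate 1, and 287 and 110 without replicate 5. With all libraries the counts were 111 and 33. All 11 other inhibitors of JAK-STAT signalling, which include PIAS proteins and phosphatases, were tested and 0 passed in limma, edgeR or DESeq2, with 1 in each genotype at an unadjusted p under 0.05 and medians of -0.02 and 0.05. The smallest p was that of Ptpn2, a phosphatase gene, with 0.68 in WKO (limma adjusted p = 0.141). Without confined WKO replicate 1 its limma adjusted p in WKO was 0.0317. In WT the Ptpn2 difference was 0.24 (limma adjusted p = 0.691). In the ligase partner list the smallest p was that of Eloc, the elongin C gene, with 0.26 in WKO (limma adjusted p = 0.483). In WT the Eloc difference was 0.09 (limma adjusted p = 0.876).

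Of 11 receptor tyrosine kinases and adaptors that SOCS proteins bind, 9 were tested, with medians of 0.25 in WT and 0.21 in WKO. Among these 1 rose and 0 fell in each genotype, beside 1.16% of all tested genes called in WT and 1.72% in WKO. The gene that rose was Irs2, an insulin receptor substrate that SOCS1 and SOCS3 are known to target. Its normalized read count was 326 and 257 in unconfined WT, 1196 to 1655 in confined WT, 387 and 613 in unconfined WKO, and 2084 to 2535 in confined WKO. The confined libraries lay well above the unconfined ones in both genotypes. It rose by 2.32 in WT (SE 0.206, limma adjusted p = 0.000455) and by 2.20 in WKO (SE 0.206, limma adjusted p = 0.000358) on the log2 scale. Among the genes named here, Irs2 kept its call in both genotypes in all 22 alternatives. After loss of WASp in confined cells 2 of the 9 tested genes were higher, beside 2.59% of all tested genes called. They were Flt3 (2.78, limma adjusted p = 0.0346) and Csf1r, the M-CSF receptor gene (0.47, limma adjusted p = 0.0464). Csf1r is also among the macrophage markers summed above. Flt3 kept this call in 11 and Csf1r in 8 of 22 alternatives, with adjusted p up to 0.122 and 0.288; each lost it without any 1 of the confined WT or unconfined WKO libraries, among others.

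All 15 genes known as targets of STAT3 or STAT5 were tested, and 6 rose and 0 fell after confinement in each genotype. Over all tested genes 1.16% passed in WT and 1.72% in WKO, and this list was chosen with earlier results of these data known. The median was 0.59 in WT and 1.01 in WKO, beside -0.01 over all tested genes in both. Several of the 6 also answer to other pathways, and Osm stands in the ligand list as well. Junb, which encodes an AP-1 subunit, stood at 1657 and 2124 in unconfined WT and 8991 to 11392 in confined WT, and rose by 2.45 (limma adjusted p = 0.00268), and by 2.13 in WKO (limma adjusted p = 0.00409). Pim1 rose by 2.28 in WT (limma adjusted p = 0.00594) and by 1.99 in WKO (limma adjusted p = 0.0106). Fos, another AP-1 subunit gene, rose by 1.56 in WT (limma adjusted p = 0.0463) and by 2.27 in WKO (limma adjusted p = 0.0048). The remaining genes that rose were Bcl3, by 1.60 and 1.49 (limma adjusted p = 0.0237 and 0.0275), and Cebpb, by 1.95 and 1.92 (limma adjusted p = 0.0218 and 0.0184), in WT and WKO respectively. These counts moved with the libraries and the fit. Without unconfined WT replicate 1 or 3 the count in WT was 0 or 2, without any 1 of the confined WT libraries it was 3, and without unconfined WKO replicate 1 the count in WKO was 1. Without the mean-variance trend the count was 0 in both genotypes, with only the WKO libraries fitted it was 1, and by edgeR it was 4 in WT and 6 in WKO. Fos and Bcl3 each lost the WT call without any 1 of the WT libraries, and Cebpb without any 1 of them except unconfined replicate 3 (limma adjusted p between 0.0618 and 0.292 over these genes). Junb lost it without unconfined WT replicate 1 (0.0605) and Pim1 without replicate 1 (0.0805) or 3 (0.0799). In WKO the calls for Junb (0.0724), Pim1 (0.159), Cebpb (0.272) and Bcl3 (0.242) were lost without unconfined WKO replicate 1 and those for Fos (0.0639) and Bcl3 (0.203) without replicate 3; Bcl3 also lost it without confined WT replicate 2 (0.0552) or 3 (0.0535). After loss of WASp in confined cells 2 of the 15 genes were lower and 0 higher, beside 2.59% of all tested genes called. They were Bcl2l1 (-0.61, limma adjusted p = 0.028) and Ccnd1 (-0.90, limma adjusted p = 0.0159). Both lost this call without any 1 of the confined WT libraries (limma adjusted p between 0.0559 and 0.111), and Bcl2l1 also without confined WKO replicate 2 (0.0704).

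**Figure D5:**
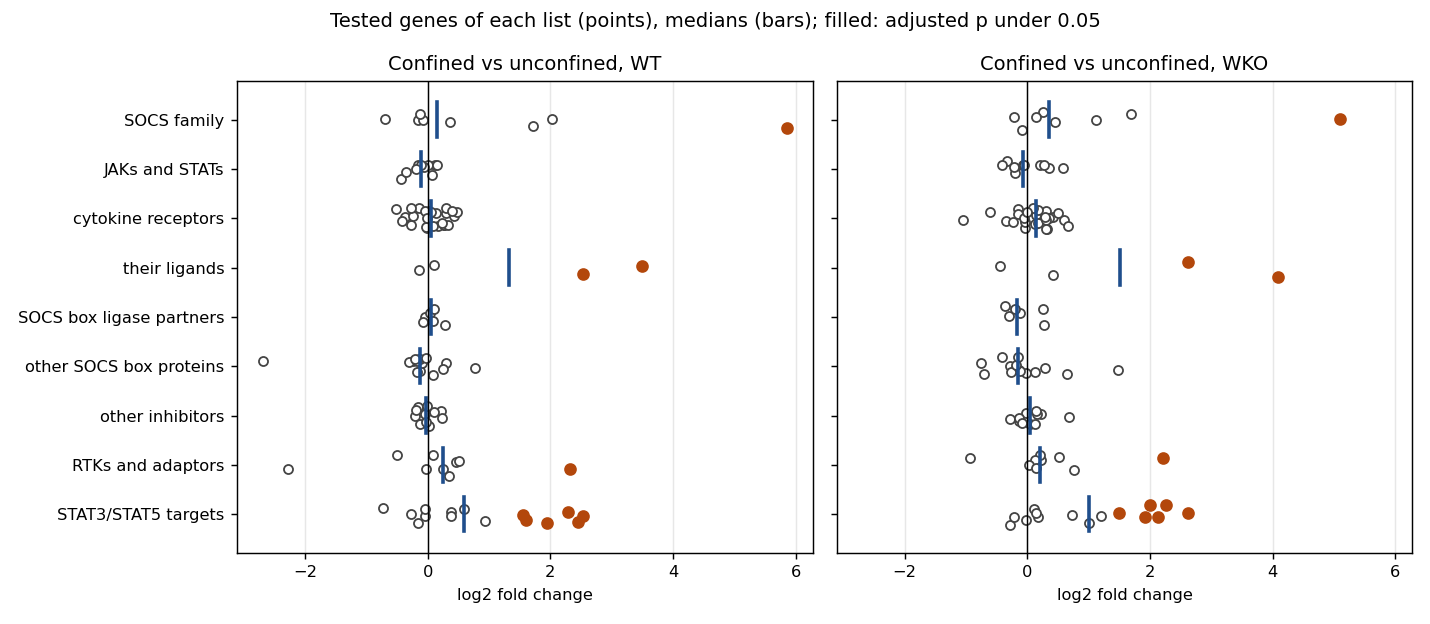
Log2 fold change after confinement (horizontal axis) of each tested gene of the SOCS family and of 8 lists around it, in WT and in WKO, with bars for list medians and filled points for an adjusted p under 0.05. Filled points lie to the right of 0 and occur in 4 rows: the SOCS family, the ligands, the receptor tyrosine kinases and adaptors, and the STAT targets.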

How the data were processed

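Values came from 1 table, deposited by the authors, that holds a signal for each gene in each library, namely read counts divided by a library factor. FastQC, Trim Galore, STAR and the builds GRCm38 and mm10 are named in the submitters' processing notes; the counting tool, annotation and strand setting are not given in the sources used here. In each library 100% of the deposited values above 0 were whole multiples of the value of 1 read (tolerance 1e-06), and the library factors equalled DESeq2 median-of-ratios size factors to within 3.33e-15. No column belonged to other samples.

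Genes with a mean of at least 10 were tested as log2(value + 1) with limma 3.58.1 in R 4.3.3 (empirical Bayes with a mean-variance trend, 1 mean per group, all 10 libraries, 6 residual degrees of freedom). P-values are two-sided and Benjamini-Hochberg adjusted over the 12455 tested genes of a comparison, with a threshold of 0.05. On the recovered reads edgeR 4.0.16 called 116 genes after confinement in WT and 186 in WKO, and DESeq2 1.42.0 called 333 and 486. Other alternatives changed scaling, pseudocount, filter, trend, weights and libraries. Replicates differed beyond sampling noise (chi-square per degree of freedom 7.56 to 78.3), so each library counted once. Reads lack molecular identifiers, so the floor of 3 reads covers counting error only.

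Loci and exon lengths came from GENCODE M21 (GRCm38). By blastn 2.17.0, stretches of at least 100 bases at 95% identity to another gene covered 10.7% of Socs2 (Gm8000), 16.3% of Socs6 (Gm9449) and 10.3% of Cish (Gm17041), and none of the other members. All members were named; from each list up to 4 genes with the smallest p among those passing in a confinement comparison were named, or the 1 with the smallest p, and likeness used the 3 highest r. The other genes named from the lists, Bcl3, Cebpb, Csf3r, Flt3, Csf1r, Bcl2l1, Ccnd1, Lif, Il15 and Il6, were chosen after their values were seen. The members and lists were chosen with earlier results of these data known.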

Additional observations from a re-analysis of the deposited data

How the results depend on the processing

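The 40 member log2 differences gave 872 values over 22 alternatives, of which 825 kept direction and side of the threshold, 6 lost and 8 gained the call, and 33 changed sign, none of those in a called value. One alternative, without WKO_NC replicate 3 and WKO_3 replicate 5 together, was chosen after seeing the data. The number of members called after confinement in WT (1) was 0 without the mean-variance trend, 2 with array weights, 2 with only the libraries compared (Cish added in both), and 0 to 2 with libraries left out. In WKO (1) it was 0 without the trend, 0 with only the libraries compared, 2 with array weights (Socs4), 2 by DESeq2 (Cish), and 0 to 1 with libraries left out. For WASp loss in confined cells (0) it was 1 with array weights (Socs6) and 0 to 1 with libraries left out. Counts over all genes ranged from 20 to 455 (confinement, WT), 33 to 1735 (confinement, WKO), 4 to 245 (WASp loss, unconfined) and 53 to 1948 (WASp loss, confined), and the interaction gave 0 in each.

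Deviations from the group means had correlations of -0.11 to 0.0764 in the 7 pairs of libraries with the same replicate number. In a group of 2 libraries the deviations mirror each other, so these values cannot show whether the numbers mark shared animals or cultures. With the replicate block the member counts were 1 in WT, 1 in WKO and 0 elsewhere, 245 genes were called for WASp loss in unconfined cells against 18 without it, and signs changed for Socs2 (0.074) and Socs6 (-0.044) after confinement in WKO, Cish (-0.28) for WASp loss in confined cells, the Socs7 interaction (-0.048), Asb2 in WKO (0.064) and Eloc in WT (-0.030). For WASp loss in confined cells the block ended the calls of Csf3r (0.69, adjusted p = 0.0812), Flt3 (3.16, 0.122), Csf1r (0.36, 0.288) and Bcl2l1 (-0.54, 0.0922). Array weights changed the sign for WASp loss in confined cells of Cish (-0.25), Socs3 (-0.57), Socs5 (-0.047) and Socs7 (-0.026), and of the interactions of Socs2 (-0.32) and Socs7 (-0.11). In the block, replicate numbers 5 and 6 each mark 1 library. Confined WKO replicate 5 and confined WT replicate 6 are thus fitted exactly and add nothing to the comparisons. Without confined WKO replicate 5 alone the Cish difference in confined cells was -0.29, beside -0.28 with the block. The causes of the sign changes were not tested.

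With libraries left out, ranges that crossed 0 were, after confinement, Socs2 in WT (-0.96 to 0.64), and in WKO Socs2 (-0.47 to 0.30), Socs4 (-0.0058 to 0.46) and Socs5 (-0.51 to 0.028). For WASp loss they were Socs7 in unconfined cells (-0.092 to 0.25), and in confined cells Cish (-0.29 to 0.82), Socs1 (-0.15 to 0.43), Socs3 (-0.29 to 1.41) and Socs5 (-0.057 to 0.19). For the interaction they were Cish (-1.05 to 0.057), Socs2 (-0.72 to 0.88), Socs3 (-1.95 to 0.45) and Socs7 (-0.096 to 0.25). A lone library left in a group was assumed to vary like the other groups. Low counts limit Cish, Socs1 and Socs2.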
